A study of Homo sapiens with 34 samples.

Results

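The 10 genes described here are human epithelial innate defence genes: the complement components C3 and CFB, the acute-phase proteins SAA1 and SAA2, the siderophore-binding lipocalin LCN2, the protease inhibitors PI3 and SLPI, the calgranulins S100A8 and S100A9, and the chemokine CXCL14. They were found by symbol among the 26336 genes of the count table, and all 10 were present. They were chosen by their measured response to an ACP-coated surface in RWPE cells and by the contrast between C3 in RWPE and C3 in LNCaP. The comparisons of ACP with plastic in RWPE and in LNCaP are therefore given as a description, with no test.

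Poly(A) RNA was sequenced from 34 libraries in 17 groups of 4 prostate cell lines. RWPE is a non-tumorigenic prostate epithelial line grown in serum-free keratinocyte medium with EGF and bovine pituitary extract, LNCaP comes from a lymph node metastasis, and VCaP and MDAPCa2a come from bone metastases. Cells grew on plastic or on an ACP-coated surface, described by the submitters as a calcium surface, in control medium, in medium with charcoal-dextran stripped serum, or on ACP with androgen at a labelled 100 mM (DHT in the titles, testosterone in the treatment labels, called androgen here). Groups held 2 libraries each, except 3 for RWPE on ACP with androgen and 1 for VCaP on plastic with stripped serum. RWPE had plastic control, ACP control and ACP androgen groups only. The treatment protocol puts androgen into stripped serum, so in RWPE androgen and the change of medium cannot be told apart. MDAPCa2a had no ACP control group, and its plastic, but not its ACP, carried a protein coating. Plastic control is labelled continuous culture and every other group day 4, whereas the treatment protocol grows both alike. The labels do not say that replicates came from separate cultures, so p-values measure only the spread between these libraries, which may be technical. In bulk RNA, fewer expressing cells and less RNA per cell cannot be told apart.

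Complement tags microbes for clearance: C3 is its central component, cleaved to place C3b on surfaces, and factor B, encoded by CFB, provides the protease of the alternative pathway C3 convertase. Epithelia secrete SAA proteins at barriers. They also release lipocalin 2, elafin (PI3), SLPI and calprotectin (the S100A8 and S100A9 heterodimer), which withhold iron and metals from microbes or restrain neutrophil elastase. Many of these genes are known targets of NF-kB, C/EBP and STAT3 signalling downstream of IL-1, TNF, IL-6 and IL-17. CXCL14 is a chemokine made by resting epithelia.

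RefSeq promoter windows (GRCh38.p14, 250 bases before to 50 after a gene start) were matched for 5 of the 10 genes, CFB, LCN2, S100A8, S100A9 and CXCL14. No window was matched for C3, SAA1, SAA2, PI3 or SLPI. Of these, 4 are printed because their genes carry the contrasts below: CFB and S100A9 were higher on ACP in RWPE and in 1 androgen library of VCaP, and LCN2 and CXCL14 fell with androgen in RWPE. Capitals mark matches, on either strand, to the NF-kB consensus, to the C/EBP-type motif TTNNGNAA or to the STAT-type motif TTCNNNGAA. CFB (chr6:31945845-31946144, plus strand), LCN2 (chr9:128149203-128149502, plus strand), S100A9 (chr1:153357604-153357903, plus strand) and CXCL14 (chr5:135578942-135579241, minus strand) read 5′ to 3′ as follows.
CFB: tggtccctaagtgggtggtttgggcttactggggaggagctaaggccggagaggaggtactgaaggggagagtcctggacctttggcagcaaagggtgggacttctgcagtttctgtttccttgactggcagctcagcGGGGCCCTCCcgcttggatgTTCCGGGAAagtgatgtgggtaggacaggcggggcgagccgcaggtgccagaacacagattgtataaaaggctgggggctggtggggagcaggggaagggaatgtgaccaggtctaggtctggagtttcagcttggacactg
LCN2: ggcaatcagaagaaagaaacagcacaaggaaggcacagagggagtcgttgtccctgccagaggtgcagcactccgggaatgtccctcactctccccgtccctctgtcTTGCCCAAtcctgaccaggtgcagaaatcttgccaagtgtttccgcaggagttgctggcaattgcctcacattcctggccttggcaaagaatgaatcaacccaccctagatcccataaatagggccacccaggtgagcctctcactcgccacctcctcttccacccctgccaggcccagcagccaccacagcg
S100A9: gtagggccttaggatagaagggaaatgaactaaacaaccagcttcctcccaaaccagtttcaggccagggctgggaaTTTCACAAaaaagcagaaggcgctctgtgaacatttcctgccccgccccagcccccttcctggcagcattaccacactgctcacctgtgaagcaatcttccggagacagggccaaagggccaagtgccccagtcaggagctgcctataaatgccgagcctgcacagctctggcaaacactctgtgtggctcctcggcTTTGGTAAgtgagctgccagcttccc
CXCL14: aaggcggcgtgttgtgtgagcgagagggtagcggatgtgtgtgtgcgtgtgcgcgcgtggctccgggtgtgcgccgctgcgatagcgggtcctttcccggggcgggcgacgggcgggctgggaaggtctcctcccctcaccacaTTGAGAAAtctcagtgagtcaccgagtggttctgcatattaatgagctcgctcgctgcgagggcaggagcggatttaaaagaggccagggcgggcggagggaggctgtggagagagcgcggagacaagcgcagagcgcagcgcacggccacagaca
The CFB window held an NF-kB match starting 112 bases and a STAT-type match starting 92 bases before the gene start, and these did not overlap. Neither motif matched in the windows of the other 4 genes. The NF-kB consensus matched in 7.73% and the STAT-type motif in 7.66% of 35116 promoter windows of the same length. The C/EBP-type motif matched in 4 of the 5 genes, LCN2, S100A8, S100A9 and CXCL14, and in 36.8% of all windows. A match is a string of letters and was not tested as a binding site.

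Levels are TMM-scaled read counts per M reads (CPM). Library totals ran from 15.4 to 44.8 M reads, and those of the 8 plastic control libraries (34.9 to 44.8 M) were mostly above the other 26 (15.4 to 37 M). The basal and squamous keratin list (KRT5, KRT14, TP63, KRT6A, SPRR1B and IVL) summed to between 3470 and 16500 CPM in RWPE libraries and to between 1.04 and 38.5 CPM in the cancer lines. The luminal list summed to between 803 and 1460 CPM in RWPE and to between 2000 and 16500 CPM in the cancer lines. Calgranulins and C3 are also made by myeloid cells. The leukocyte gene PTPRC and the neutrophil genes CSF3R, MPO and FCGR3B stayed at or below 0.175, 0.506, 0.278 and 0.0902 CPM in every library. In RWPE the 8 myeloid genes summed to between 77.5 and 113 CPM, mostly CD68, and the plastic control sums (107 and 113) were the highest. CD14, which epithelia can also express, measured 2.57 and 3.49 CPM in RWPE on plastic and 6.23 to 8.93 in the 5 ACP libraries. C4A and C4B, near-identical copies, were listed at 0 in all 34 libraries. SAA1 and SAA2 are also near-identical, so how reads were divided between them is uncertain.

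All 10 genes had their highest library in RWPE. For 6 of them, C3, SAA1, LCN2, S100A8, S100A9 and CXCL14, every RWPE library lay above every cancer line library, and for CFB, SAA2, PI3 and SLPI the ranges overlapped. Selection on RWPE libraries makes this order a description, and its share over all genes was not counted. C3 ranged from 16.1 to 83.3 CPM in 7 RWPE libraries (median 47.5), against at most 3.82 in LNCaP, 4.12 in VCaP and 4.26 in MDAPCa2a. SLPI departed most from this pattern. It ranged from 28.4 to 125 CPM in RWPE and from 28.1 to 118 in MDAPCa2a, which overlapped, while LNCaP held 2.62 to 8.3 and VCaP 0.451 to 38.2.

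**Figure D1:**
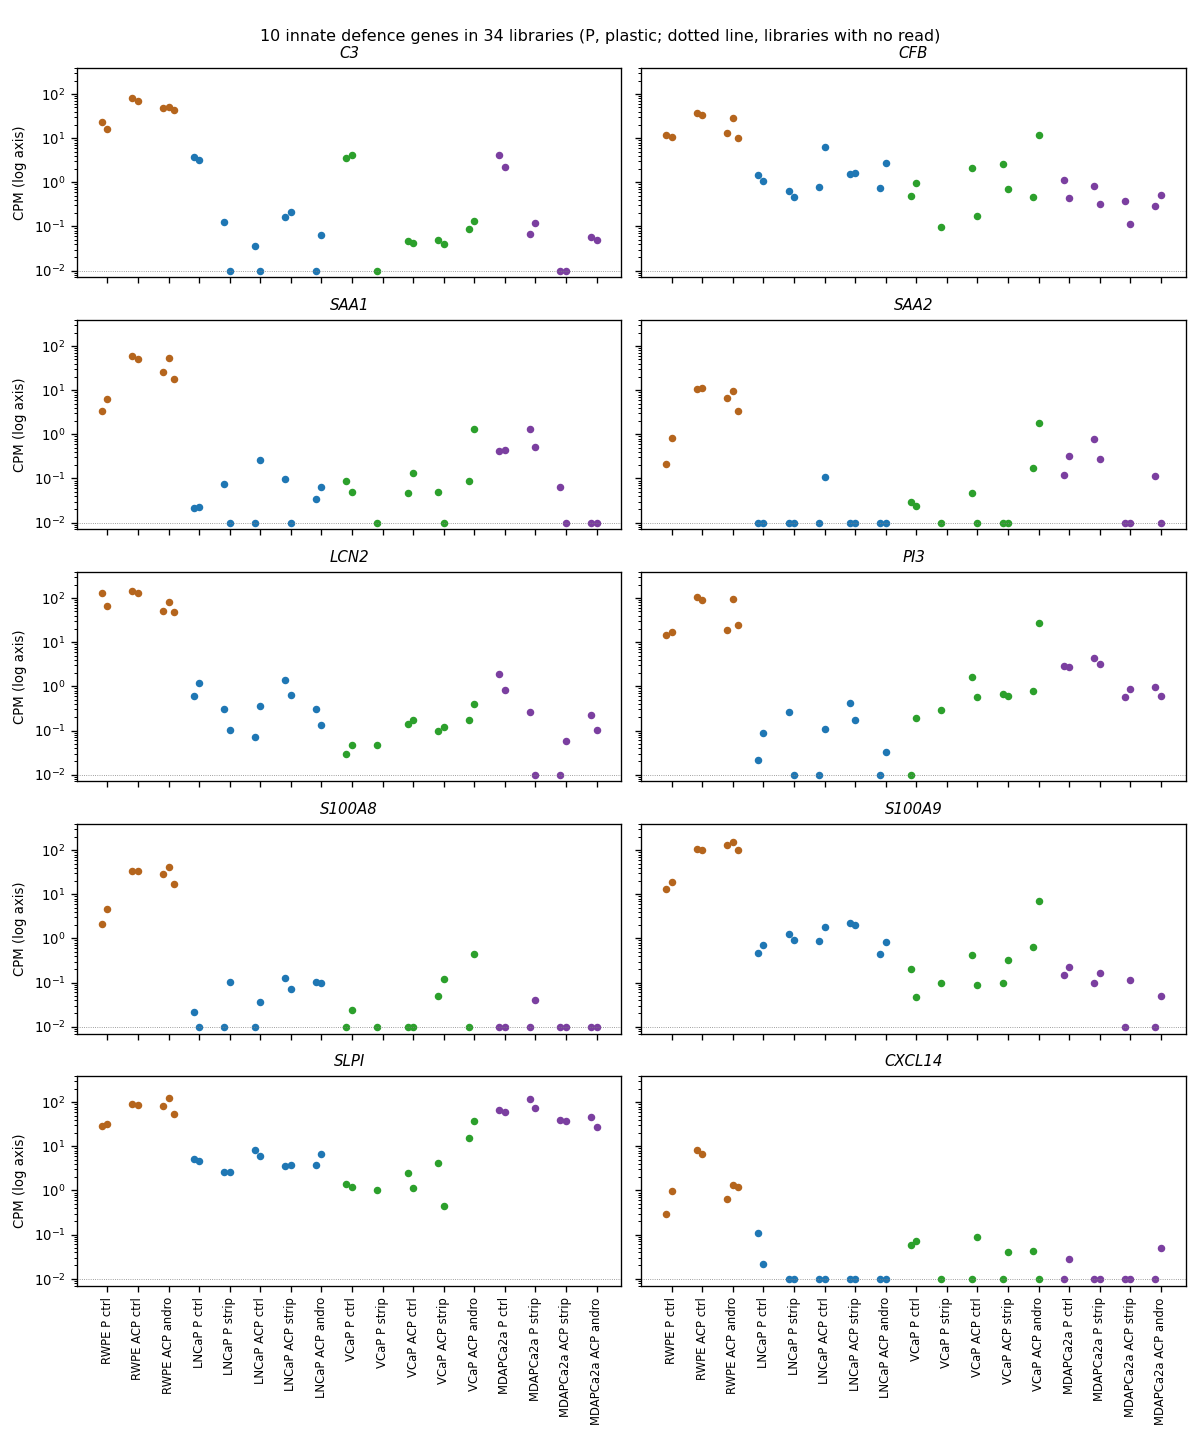
Level of each of the 10 genes in 34 libraries (CPM, log axis), 1 point per library, grouped by line, surface (P, plastic) and medium, with points on the dotted line for libraries with no read. For C3 every RWPE library (16.1 to 83.3 CPM) lies above every other library, while SLPI in MDAPCa2a (28.1 to 118 CPM) overlaps RWPE (28.4 to 125 CPM).

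On plastic in control medium, all 10 genes were lower in LNCaP than in RWPE by edgeR's quasi-likelihood test, where 27.9% of the 17323 genes tested were called lower. All 10 were lower in VCaP as well (30.3% of genes). In MDAPCa2a 8 were lower (28.4% of genes). These genes were selected on RWPE libraries, 2 of which enter here, so the counts are a description. The calls lost most often were PI3 in MDAPCa2a, in 4 of 8 alternatives with DESeq2 among them, and SAA2 in VCaP, in 3 of 8. LCN2 differed most between RWPE and VCaP on plastic. It measured 129 and 68.1 CPM in the RWPE libraries and 0.0292 and 0.0482 in VCaP. The log2 difference, given as a description, was -11.13 ± 0.74 (SE). The VCaP libraries held 3 reads together (ratio 0.000392, exact 95% interval 8.32e-05 to 0.00118). The exceptions in MDAPCa2a were SAA2 and SLPI. SAA2 measured 0.119 and 0.331 CPM against 0.212 and 0.809 in RWPE, and the groups overlapped (adjusted p = 0.313). SLPI was the only gene with a positive difference there: 66.1 and 59.6 CPM in MDAPCa2a stood above 28.4 and 31.8 in RWPE, without overlap (log2 1.06 ± 0.47), but this did not pass (adjusted p = 0.0588).

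On ACP with androgen the lines again differed. All 10 genes were lower in LNCaP (34.8% of genes called lower) and in MDAPCa2a (34.2%), and 9 were lower in VCaP (34.6%). These counts too are a description: the genes were selected on RWPE libraries, and those with almost no reads in a cancer line entered this fit of all lines through RWPE. C3 averaged 48 CPM in RWPE, against 0.0326 in LNCaP, 0.109 in VCaP and 0.0539 in MDAPCa2a, with log2 differences of -10.30 ± 0.54, -8.73 ± 0.49 and -9.69 ± 0.54 (edgeR adjusted p = 8.73e-14, 2.32e-13 and 2.71e-13). The LNCaP value rests on 2 reads (ratio 0.00068, exact 95% interval 8.52e-05 to 0.00255), that of MDAPCa2a on 2 (0.00112, 0.000136 to 0.00407) and that of VCaP on 5, and intervals cover counting error only. CFB in VCaP was not called. Its 2 libraries measured 0.476 and 11.8 CPM, beside 13.4, 29.5 and 10.4 in RWPE, and the groups overlapped (log2 -1.53 ± 0.85, edgeR adjusted p = 0.115). PI3 also overlapped, at 0.779 and 26.9 CPM in VCaP beside 18.8, 98.2 and 24.9 in RWPE (log2 -1.77 ± 0.77, adjusted p = 0.0444). Its call was lost with RLE size factors, with DESeq2, without RWPE androgen replicate 2 (log2 -0.58) and without VCaP androgen replicate 1 (-0.81), and without VCaP androgen replicate 2 the difference was -5.85.

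C3 separated the plastic control libraries from all others in each cancer line. In LNCaP it measured 3.82 and 3.18 CPM (181 and 144 reads) on plastic in control medium, 0.128 and 0 on plastic in stripped serum, 0.0358 and 0 on ACP in control medium, 0.162 and 0.21 on ACP in stripped serum, and 0 and 0.0653 on ACP with androgen. In VCaP it measured 3.59 and 4.12 CPM in plastic control and at most 0.131 CPM (3 reads) in the other 7 libraries. In MDAPCa2a it measured 4.26 and 2.18 CPM in plastic control and at most 0.121 CPM (3 reads) in the other 6. Across the cancer lines, the 6 plastic control libraries held 79 to 181 C3 reads and the other 21 held at most 6. RWPE had the opposite order, with 22.9 and 16.1 CPM in plastic control and 44.4 to 83.3 in the other 5 libraries.

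The same split was seen in transcripts typical of liver. FGG, the fibrinogen gamma chain, measured 1.41 to 2.84 CPM in cancer line plastic control and was at 0 in 20 of the 21 remaining cancer line libraries. It stood at 2.07 CPM in both RWPE plastic control libraries and at 0 in the other 5. FGB, FGA and APOA1 split the same way. The liver list of 8 genes summed to 14.4 to 20.5 CPM in LNCaP plastic control against 1.99 to 7.38 elsewhere, and to 7.25 to 13.2 against 0.0404 to 0.802 in MDAPCa2a. VCaP carried liver transcripts in every group (75.3 to 169 CPM in plastic control, 44.3 to 385 elsewhere). Because plastic control also differs from the other groups in depth and in its labelled culture time, the group and any batch cannot be told apart, and the part of this pattern in the C3 differences was not tested.

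**Figure D2:**
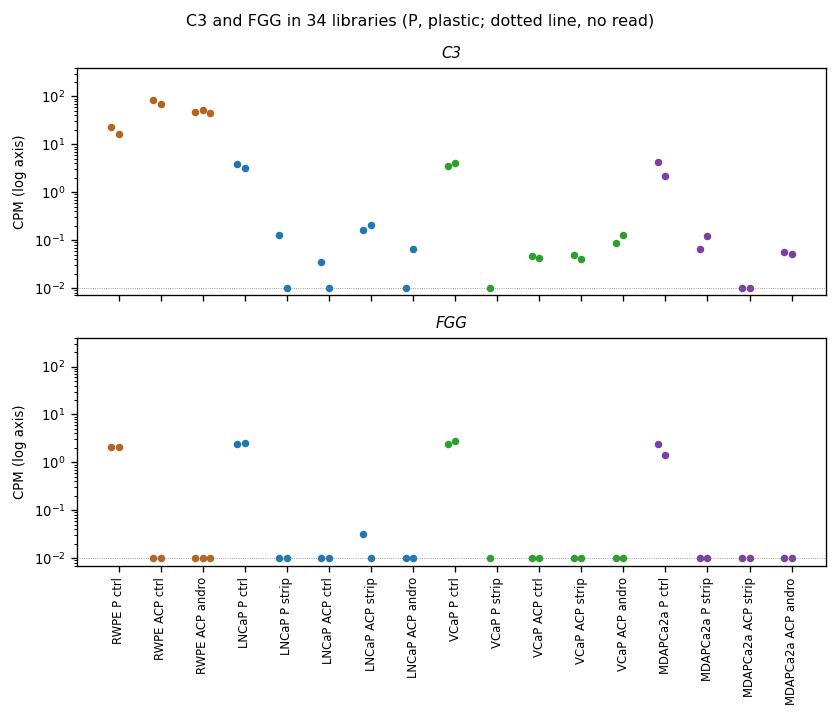
C3 and FGG in 34 libraries (CPM, log axis), 1 point per library, with points on the dotted line for no read. In the cancer lines both genes are seen at 1.41 to 4.26 CPM in plastic control and lie at or near 0 elsewhere, while RWPE C3 is lowest in plastic control.

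On plastic, C3 was lower in stripped serum than in control medium in every library of each cancer line. C3 passed the count filter in these lines only through its reads in plastic control, so the calls below are not independent of that group's level. In LNCaP the log2 difference was -5.32 ± 0.72. It is given as a description, since the C3 level of these plastic control libraries helped choose the gene, and C3 was the 1 member called of 5, where 9.45% of genes were called. Without stripped replicate 1, which leaves a library with no C3 read, the difference was -9.76. In VCaP C3 was at least 26.9-fold lower, from 294 reads to 0 (edgeR adjusted p = 0.0372, 1 of 7 members, 0.89% of genes). The stripped arm there was a single library, assumed to vary like the other VCaP groups, and the call was lost with a replicate block (adjusted p = 0.0564). In MDAPCa2a the log2 difference was -5.03 ± 0.61 (edgeR adjusted p = 0.017, 1 of 6 members, 1.58% of genes), and the call was lost without any 1 of its 4 libraries. In VCaP on ACP in control medium C3 fell by 6.23 ± 0.69 on the log2 scale (adjusted p = 0.0183), from 294 to 2 reads (ratio 0.0117, exact 95% interval 0.0014 to 0.0423, counting error only), the 1 member called among 7 where 0.0448% of genes were called. Leaving out plastic control replicate 1 or either ACP library ended that call. All of these comparisons share the plastic control libraries just described. Between control medium and stripped serum on plastic, FGG went from a mean of 2.47 CPM to 0 in LNCaP and from 1.89 CPM to 0 in MDAPCa2a. In LNCaP C3 on ACP in control medium, which helped choose the genes, was 1 read against 325 on plastic, a log2 difference of -7.23 ± 0.90 (ratio 0.00511, interval 0.00013 to 0.0289). Where neither group was plastic control, C3 in LNCaP was 11 reads on ACP and 5 on plastic in stripped serum, a log2 difference of 1.20 ± 0.92.

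In RWPE on ACP in control medium, all 10 genes had higher fitted levels than on plastic. This is the comparison that chose them. The median log2 difference was 2.68, beside 0.03 over the 14293 genes fitted. C3 measured 83.3 and 68.7 CPM on ACP and 22.9 and 16.1 on plastic, a log2 difference of 1.99 ± 0.21. CFB measured 36.7 and 33.3 CPM against 11.7 and 10.8 (1.66 ± 0.39). Both complement genes were thus separated without overlap.

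The acute-phase genes SAA1 and SAA2 were also separated without overlap. SAA1 measured 61.0 and 52.0 CPM on ACP and 3.4 and 6.45 on plastic (log2 3.54 ± 0.48). SAA2 measured 10.9 and 11.0 CPM on ACP and 0.212 and 0.809 on plastic (4.42 ± 0.58). LCN2 overlapped, with 144 and 128 CPM on ACP and 129 and 68.1 on plastic (0.48 ± 0.33). It was the gene with the smallest difference of the 10. The elastase inhibitor PI3 measured 109 and 90.2 CPM on ACP and 14.6 and 17.5 on plastic (2.66 ± 0.63). SLPI, a second inhibitor of the same family of proteases, measured 92.2 and 85.5 against 28.4 and 31.8 (1.59 ± 0.31). The calgranulins S100A8 (34.7 and 33.3 against 2.12 and 4.6 CPM) and S100A9 (108 and 99.9 against 13.0 and 19.4) differed by 3.36 ± 0.43 and 2.70 ± 0.26 on the log2 scale. CXCL14 measured 8.45 and 6.82 CPM on ACP and 0.292 and 0.986 on plastic (3.59 ± 0.51).

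With androgen on ACP, RWPE cells had less C3, LCN2 and CXCL14 than on ACP in control medium. These 3 of 10 members fell by edgeR's quasi-likelihood test, and no member rose, where 19.1% of 14293 genes changed. CXCL14 measured 0.626, 1.35 and 1.22 CPM with androgen and 8.45 and 6.82 without, all lower (log2 -2.80 ± 0.44, adjusted p = 0.017). Its level with androgen overlapped that on plastic. LCN2 measured 50, 84.1 and 49 CPM against 144 and 128 (-1.13 ± 0.29, adjusted p = 0.028). C3 measured 47.5, 52.3 and 44.4 CPM against 83.3 and 68.7 (-0.64 ± 0.18, adjusted p = 0.0375), and its 3 androgen libraries remained above both plastic libraries. The ACP control libraries were among those that chose the genes for high levels, so a lower level elsewhere is not independent of that choice. Without either ACP control library none of the 3 calls held, and without androgen replicate 1 the calls of C3 and LCN2 were lost. The C3 call was also lost in the fit of all lines. Without androgen replicate 2, 6 of 10 members were called.

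The other 7 genes did not pass in RWPE with androgen. PI3 measured 18.8, 98.2 and 24.9 CPM with androgen against 109 and 90.2, SAA1 25.4, 54.0 and 18.4 against 61.0 and 52.0, and CFB 13.4, 29.5 and 10.4 against 36.7 and 33.3. SAA2 measured 6.64, 9.69 and 3.43 CPM against 10.9 and 11.0. In all of these genes androgen replicate 2 was the highest of its group. CFB and SAA2 did not overlap control, so with the called genes 5 members were lower in every androgen library. SLPI (82.8, 125 and 55.2 against 92.2 and 85.5) and S100A9 (131, 151 and 103 against 108 and 99.9) were near or above control, with log2 differences of 0 ± 0.28 and 0.33 ± 0.22. S100A8 measured 28.5, 41.3 and 17.5 CPM with androgen against 34.7 and 33.3, which overlapped. Of the companion genes fixed for comparison, 4 of 7 chemokines and cytokines tested rose and none fell, led by CXCL2 (log2 2.40 ± 0.42), CCL20 (2.23 ± 0.33) and CXCL3 (1.97 ± 0.35). Their median was 1.53, beside -0.02 over all genes tested. The complement regulators CD55 (1.14 ± 0.20) and CD46 (0.82 ± 0.22), which protect host cells from C3b, also rose, and 6 others of the 8 tested did not pass. Of 6 basal and squamous markers 4 fell, among them IVL (-2.24 ± 0.58), KRT6A (-1.71 ± 0.47) and KRT5 (-1.16 ± 0.36). KRT5 measured 2350, 6630 and 3060 CPM with androgen and 10200 and 8090 without, with replicate 2 again highest. The part of this marker shift in the fall of C3, LCN2 and CXCL14 was not tested.

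**Figure D3:**
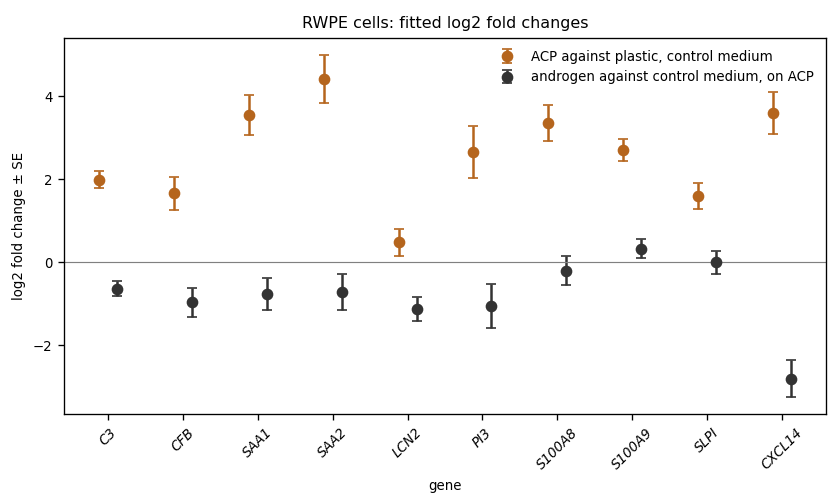
Fitted log2 fold changes (± SE) of the 10 genes in RWPE for ACP against plastic in control medium (brown, 2 against 2 libraries, used to choose the genes) and for androgen against control medium on ACP (black, 3 against 2 libraries). All 10 brown points are above 0, and CXCL14 has the lowest black point at -2.80.

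In LNCaP 5 members passed the filter on low counts, C3, CFB, LCN2, S100A9 and SLPI. SAA1, SAA2, PI3, S100A8 and CXCL14 had at most 13 reads in any LNCaP library. With androgen on ACP, S100A9 fell, the 1 member called of 5 (7.73% of genes). It measured 0.449 and 0.816 CPM with androgen and 2.3 and 2.03 in stripped serum (log2 -1.78 ± 0.46, adjusted p = 0.0396). The call did not hold when all lines were fitted together, nor without either stripped library or androgen replicate 1. LCN2 measured 0.311 and 0.131 CPM against 1.42 and 0.63, also without overlap (-2.22 ± 0.76), and did not pass (adjusted p = 0.0999). SLPI went the other way (3.87 and 6.86 against 3.56 and 3.85 CPM, 0.52 ± 0.29, adjusted p = 0.314). Of companion genes, C2, which supplies the protease of the classical C3 convertase, rose (2.95 ± 0.40), as did C1S (2.14 ± 0.53). NFKBIZ, which encodes an NF-kB co-factor needed for LCN2 induction, fell by 1.99 ± 0.26.

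In stripped serum on ACP, no LNCaP member passed against control medium (0 of 5, 3 at an unadjusted p under 0.05, 1 by DESeq2, 5.37% of genes called by edgeR). SLPI measured 3.56 and 3.85 CPM against 8.3 and 6.02 (log2 -0.97 ± 0.29, adjusted p = 0.0839), and LCN2 1.42 and 0.63 against 0.0715 and 0.365 (2.21 ± 0.77, adjusted p = 0.124). NFKBIZ rose here by 4.05 ± 0.29. On ACP in control medium the LNCaP replicates differed: CFB measured 6.24 CPM (171 reads) in replicate 2 and 0.787 (22 reads) in replicate 1. TNF (2.77 against 0.0358 CPM), NFKB2 (176 against 62.7), RELB (12.1 against 3.4), ITGAM (3.91 against 0.322) and CD68 (32.5 against 5.97) were higher in replicate 2 as well, genes named after their values were seen. PTPRC measured 0.073 CPM there. The 8 myeloid genes, CD68 among them, summed to 32.8 CPM in replicate 2 and to 32.5 to 37.9 in the LNCaP androgen libraries on ACP. In the described comparison with plastic, CFB was 1.57 ± 0.75 higher on the log2 scale on ACP with ACP control replicate 2. Without it the difference was -0.57.

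In VCaP on ACP, SAA2, PI3, S100A9 and SLPI rose with androgen relative to stripped serum, 4 of 7 members tested and none lower, where 17.5% of genes changed. SAA1, SAA2 and S100A9, with at most 9 reads in any other VCaP library, passed the count filter only through the androgen libraries. The calls of SAA2 and S100A9, and the 4 of 7, are therefore not independent of that group's level. SLPI measured 15.6 and 38.2 CPM with androgen and 4.19 and 0.451 without (log2 3.56 ± 0.82, adjusted p = 0.0181). S100A9 measured 0.649 and 7.23 against 0.0975 and 0.328 CPM (4.15 ± 1.20, adjusted p = 0.0407). PI3 measured 0.779 and 26.9 against 0.683 and 0.615 CPM (4.42 ± 1.34, adjusted p = 0.0476). SAA2 had 4 and 42 reads with androgen and 0 in both stripped libraries, at least 15-fold higher (adjusted p = 0.0316). In every one of these genes androgen replicate 2 was the highest VCaP library, and for PI3 replicate 1 lay close to the stripped libraries. SAA1 (0.0866 and 1.36 against 0.0488 and 0 CPM) and CFB (0.476 and 11.8 against 2.58 and 0.697) had the same order of replicates and did not pass (adjusted p = 0.0642 and 0.306).

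Without androgen replicate 2, none of the 4 genes was called. SAA2 no longer passed the filter, and PI3 had a log2 difference of 0.26, S100A9 1.55 and SLPI 2.68. The calls of S100A9, PI3 and SAA2 were also lost without either stripped library. Those of S100A9 and PI3 were lost with a replicate block, and that of PI3 with DESeq2. S100A8, filtered out in VCaP, had 10 reads in androgen replicate 2 and 0 in replicate 1. That library held more of several inflammatory genes: CXCL8 measured 139 CPM beside 30.9 in replicate 1, CXCL10 164 beside 3.25 and CCL2 94.7 beside 4.33, the last pair named after their values were seen. In the same library KRT5 measured 12.4 CPM, beside 4.41 in replicate 1 and 2350 or more in every RWPE library, PTPRC 0.0438 and C3 0.131 (3 reads).

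Markers of other cell types moved in the same VCaP comparison. Of 5 basal and squamous markers tested KRT14 (log2 1.78 ± 0.52) and IVL (3.32 ± 0.76) rose, and the list summed to 16.4 to 27.3 CPM with androgen and 7.21 to 13.9 without. Of 6 luminal markers 4 rose, led by the androgen target KLK3 (4.77 ± 0.74), which measured 3450 and 840 CPM with androgen and 36.1 and 120 without. The hepatocyte genes ALB and AHSG fell, 2 of 8, with list sums of 44.3 to 127 CPM against 330 to 385. The fibroblast genes DCN and LUM fell, 2 of 6, with sums of 7.66 to 8.63 CPM against 40.7 to 161. The part of these shifts, and of the inflammatory genes of replicate 2, in the member calls was not tested.

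**Figure D4:**
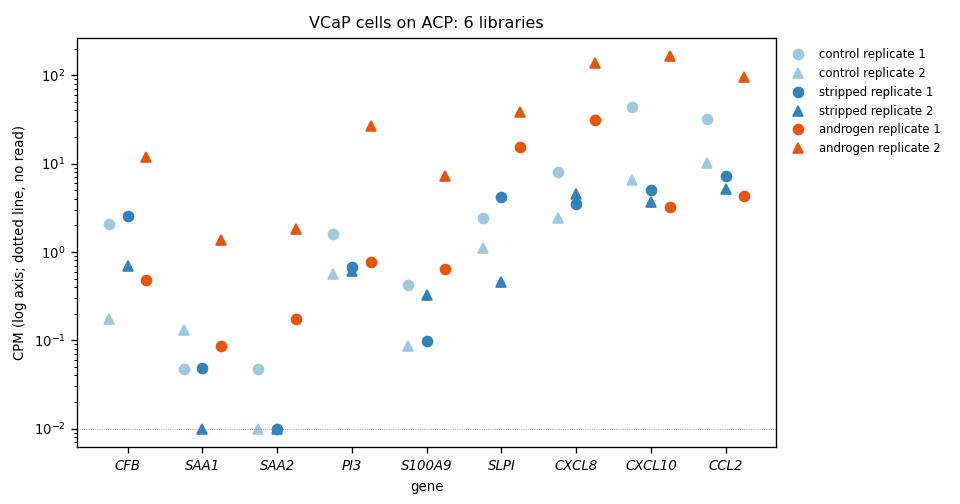
Levels of 6 members and 3 chemokines in the 6 VCaP libraries on ACP (CPM, log axis), coloured by medium, with circles for replicate 1 and triangles for replicate 2. The androgen replicate 2 triangle is highest for every gene shown, at 26.9 CPM for PI3 against 0.779 in androgen replicate 1.

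Among companion genes in VCaP with androgen, 3 of 6 secreted antimicrobial genes tested rose and none fell: PIGR (log2 5.69 ± 0.97), LTF (3.76 ± 0.70) and LYZ (3.66 ± 0.68). Their list median was 3.13, beside -0.03 over all genes tested. The acute-phase genes SERPINA3 (6.15 ± 0.71), ORM2 (5.45 ± 0.90) and SERPINA1 (1.37 ± 0.33) rose, 3 of 6, and none fell. SERPINA3 was high in both androgen libraries (107 and 276 CPM against 1.46 and 3.85). Chemokines CXCL8 (4.40 ± 0.75), CXCL1 (3.74 ± 0.94) and CXCL6 (3.56 ± 0.80) rose, 3 of 10 (list median 3.00). This list summed to 50.8 CPM in androgen replicate 1 and 481 in replicate 2, against 20.6 and 21.3 in stripped serum. On ACP in control medium the sums were 22.8 and 96 CPM, a range that holds androgen replicate 1. Complement activation genes went both ways: C2 rose (3.85 ± 0.55), and C1R (-1.93 ± 0.36), CFD (-1.52 ± 0.32) and C1RL (-1.36 ± 0.22) fell, of 7 tested. In VCaP on ACP, stripped serum against control medium called 0 of 7 members (0 at an unadjusted p under 0.05, 0 by DESeq2), where 0.82% of genes were called by edgeR. ACP against plastic in stripped serum, with a single plastic library assumed to vary like the other groups, called 0 of 7 by the same 3 counts, where 0% of 15614 genes were called (511 at an unadjusted p under 0.05, 3 by DESeq2).

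MDAPCa2a combined a high SLPI level with almost no calgranulin. SLPI measured 66.1 and 59.6 CPM in plastic control, 118 and 74.6 on plastic in stripped serum, 40.7 and 37.3 on ACP in stripped serum, and 45.4 and 28.1 on ACP with androgen. Both plastic groups lay above both ACP groups. PI3 followed the same order: 2.95 and 2.76, 4.35 and 3.19, 0.572 and 0.871, and 0.974 and 0.606 CPM. SAA1 measured 0.417 and 0.441 CPM in plastic control and 1.33 and 0.525 on plastic in stripped serum, and had 1 read in the 4 ACP libraries together. SAA2 had 16 and 31 reads in the 2 plastic groups and 2 in the ACP androgen group. S100A8 had 1 read in 8 libraries, and S100A9 at most 8 reads in any.

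The surface comparison in MDAPCa2a, in stripped serum, called 0 of 6 members tested by edgeR, with 3 at an unadjusted p under 0.05 and 2 called by DESeq2, where 0.00734% of genes were called. All 6 fitted differences were negative: PI3 -2.29 ± 0.37 (adjusted p = 0.128), SAA1 -4.65 ± 1.07 (0.199), SLPI -1.21 ± 0.27 (0.193), C3 -4.23 ± 1.98, LCN2 -1.98 ± 1.79 and CFB -1.15 ± 0.85. Their median was -2.13, beside 0.03 over all genes tested. SAA1, C3 and LCN2, with at most 4 reads in any ACP library of this line, passed the count filter only through plastic libraries. Their signs, and so the 6 negative differences and the median, are not independent of the level on plastic. The plastic of this line was protein-coated and its ACP was not, so surface and coating cannot be told apart. Androgen on ACP called 0 of 6 members in MDAPCa2a, with 0 at an unadjusted p under 0.05 and 0 by DESeq2, and 0% of 13626 genes (236 at an unadjusted p under 0.05, 3 by DESeq2). SLPI differed there by -0.13 ± 0.27. In stripped serum against control medium on plastic, LCN2 measured 0.266 and 0 CPM against 1.87 and 0.827 (-3.17 ± 0.87, adjusted p = 0.115), and SLPI differed by 0.64 ± 0.27 (adjusted p = 0.275).

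The 5 genes most like C3, by Pearson correlation of mean log2 CPM over the 17 groups among 13218 genes, were SERPINB3 (r = 0.970), ALPP (0.969), PRSS21 (0.967), CYBA (0.961) and PRKCDBP (0.952). All 5 had their highest library in RWPE and at most 4.36 CPM elsewhere. The groups share lines and depth, so these values are a description, and the part of the line difference in them was not tested. Among the other 9 members, CXCL14 (r = 0.864) and LCN2 (0.861) were the most like C3 and SLPI the least (0.445).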

How the data were processed

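The authors deposited 1 table of raw read counts, as whole numbers, for 26336 gene symbols in 34 libraries. Of these genes 4335 had no read. STAR, HTSeq and the build hg19 are named per the submitters' processing notes. Neither annotation nor strandedness was stated there. Libraries were matched to groups by the names in the labels.

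Counts were scaled by TMM, filtered by filterByExpr at a minimum count of 10 and tested by the quasi-likelihood F test of edgeR 4.0.16 under R 4.3.3. A gene was called at a Benjamini-Hochberg adjusted p under 0.05 over all genes of the fit. Comparisons within a line used a fit of that line (residual degrees of freedom 4 or 5), and comparisons between lines a fit of all 34 libraries (17). SE was obtained from the log2 fold change and the F statistic. Of 21 comparisons, 3 were used by the choice of genes and were not tested. A fold against a group at 0 reads was set against 3 reads in that group. Ratios with 1 to 3 reads have an exact 95% interval. Correlations used log2 CPM with prior count 1. The procedure was tested on simulated data.

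All 10 genes are named. Of 13 companion lists (complement activation, complement regulators and receptors, secreted antimicrobial, acute-phase, chemokines and cytokines, inducing pathway, receptors and protease targets, and basal, luminal, myeloid, hepatocyte, fibroblast and lymphoid markers), at most the 3 largest rises and falls past the threshold may be named in a comparison. The fibroblast list summed to 0.954 to 161 CPM, the lymphoid list to at most 0.78 CPM in any library, and of the 4 testable receptor and protease target genes none was called in a comparison within a line. The genes and lists were chosen with earlier results of these data known. Alternatives were RLE size factors, no count filter, a replicate block, DESeq2 1.42.0, the fit of all lines, and leaving out each library.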

Additional observations from a re-analysis of the deposited data

Results flagged for a closer look

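In each case below every library of 1 line moved one way and every library of another line the opposite way under the same contrast. None of these differences between lines was itself tested, and many rest on few reads. C3 on ACP against plastic in control medium had a log2 difference of 1.99 in RWPE, beside -7.23 in LNCaP and -6.23 in VCaP, and the first pair was used to choose the genes. In stripped serum the same surface contrast gave C3 1.20 in LNCaP (11 against 5 reads) and -4.23 in MDAPCa2a (0 against 5 reads). SLPI gave 0.53 in LNCaP and -1.21 in MDAPCa2a. PI3 gave 1.18 in VCaP, against a single plastic library with 6 reads, and -2.29 in MDAPCa2a.

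With androgen against stripped serum on ACP, C3 differed by -2.36 in LNCaP (2 against 11 reads) and by 1.21 in VCaP (5 against 2 reads). S100A9 differed by -1.78 in LNCaP and by 4.15 in VCaP, and LCN2 by -2.22 in LNCaP and 2.21 in MDAPCa2a (6 against 1 reads). For stripped serum against control medium on plastic, SLPI differed by -0.87 in LNCaP and -0.32 in VCaP (1 stripped library), beside 0.64 in MDAPCa2a. SAA1 differed by -3.85 in VCaP (0 against 5 reads) and by 1.15 in MDAPCa2a.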

How the results depend on the processing

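Of 593 alternative values of the 69 called results of single members, 541 kept the call, 52 lost it with the same sign and 0 reversed. Most of the 69 were comparisons with RWPE, on which the genes were selected, and these seldom lost the call. Calls within a line lost it more often. They ranged from PI3 with androgen in VCaP, kept in 4 of 9 alternatives, to C3 for stripped serum on plastic in LNCaP, kept in 9 of 9. RLE size factors moved no count of members called by more than 1.5 times. With no count filter the counts of members called became 2 for androgen in LNCaP, 2 for stripped serum on ACP and 3 on plastic in LNCaP, 2 for stripped serum on plastic in MDAPCa2a and 3 for ACP in stripped serum in MDAPCa2a, where more members enter the fit. DESeq2 called 1 member for stripped serum on ACP in LNCaP and 2 for ACP in stripped serum in MDAPCa2a. The fit of all lines called 0 for androgen in LNCaP and 2 for stripped serum on plastic in MDAPCa2a. Leaving out 1 library gave 0 to 1 members for androgen in LNCaP, 0 to 5 for androgen in VCaP, 0 to 6 for androgen in RWPE, 0 for stripped serum on plastic in MDAPCa2a, 0 to 1 for ACP in stripped serum in MDAPCa2a and 0 to 1 for ACP in control medium in VCaP. The described C3 difference on ACP in LNCaP ran from -9.82 to -6.37 in control medium and from 0.60 to 5.60 in stripped serum, and that of CFB in control medium from -0.57, reversed without ACP control replicate 2, to 2.37. Beyond the smaller number of libraries, the cause was not tested. Outside plastic control, cancer line libraries held at most 6 C3 reads, so every C3 value there rests on few reads.

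With a replicate block 2 members were called for androgen in VCaP, 0 for stripped serum on plastic in VCaP and 5 for androgen in RWPE. No other count moved by more than 1.5 times. Same-numbered libraries did not deviate together throughout: correlations of deviations between groups ran from -0.34 to 0.42 in MDAPCa2a, from -0.18 to 0.25 in LNCaP, from -0.29 to 0.21 in VCaP and from -0.05 to 0.09 in RWPE, so the numbers were not taken as a pairing.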
